A study of Mus musculus with 9 samples.

Results

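The integrins, cadherins, claudins, laminins and type IV collagens of the mouse blastocyst were described here in RNA-seq libraries made after artificial oocyte activation (AOA). Members were taken by gene symbol, as symbols that begin with Itga, Itgb or Cldn, with Cdh, Lama, Lamb or Lamc followed by a digit, or with Col4a. The rule found 98 of the 22564 genes in the deposited table. Of these, 92 belong to the 6 families, with 18 integrin alpha chains, 9 integrin beta chains, 23 cadherins, 25 claudins, 11 laminin chains and 6 type IV collagen chains. The other 6, Itgb1bp1, Itgb1bp2, Itgb3bp, Itgbl1, Cldnd2 and Col4a3bp, match only by name and are given apart.

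The study injected C57BL/6 oocytes with C57BL/6 sperm by intracytoplasmic sperm injection (ICSI) and collected blastocysts at day 3.5, pooling 5 blastocysts per library. In the dICSI-AOA group (replicates 1, 4 and 5) the oocytes received sperm heads whose ability to activate the oocyte had been lowered by incubation and were then exposed to 2.5 µM ionomycin, a calcium ionophore. In the ICSI-AOA group (replicates 1, 4 and 5) normal sperm were followed by the same ionomycin treatment. In the ICSI group (replicates 2, 5 and 6) normal sperm were injected with no ionomycin. Each library mixes the lineages of its 5 embryos, so fewer cells of a type and less RNA per cell cannot be told apart.

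Integrins are receptors of an alpha and a beta chain that bind cells to the extracellular matrix or to other cells. Cadherins join neighbouring cells through adherens junctions, and claudins form the strands of tight junctions that seal an epithelium. In the blastocyst these junctions make the trophectoderm, the outer epithelium, tight enough to hold the fluid of the blastocoel. Laminins and type IV collagens build the basement membrane on which the trophectoderm and the primitive endoderm rest, and integrins are its receptors.

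The values are given in 2 units, which do not order the groups alike. Nearly all deposited estimated counts were whole multiples of a factor of each library, which was 1.16, 1.11 and 1.03 in dICSI-AOA, 1.28, 0.881 and 1.01 in ICSI-AOA and 0.867, 0.932 and 0.989 in ICSI. Dividing by the factor and rounding gave fragments. Of 314 member values above 0, 13 were not whole within 0.01, in Itgb4, Col4a1 and Cdh23. Libraries held 151833 to 163248 fragments in dICSI-AOA, 150387 to 154606 in ICSI-AOA and 128176 to 172307 in ICSI. Counting error alone was large at this depth. A member at 0 in a library could have had up to 17.4 to 23.4 FPM, the level of 3 fragments, and one at 0 in all 9 libraries up to 2.19 FPM, where FPM is the number among 1000000 fragments of a library. The deposited FPKM (the same scaling, also divided by transcript length) also carry the factors. Actb and Gapdh, which every cell uses, had only 68 and 18 fragments over all libraries. The labels name a library kit that keeps the strand, while the strand on which the authors counted is not given in the sources used here, so a count may hold fragments of a gene on the other strand or miss those of the gene itself, and the part of this in the values was not tested. A low count or a 0 is therefore not given as a low level of the transcript.

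Markers of the blastocyst lineages were sparse in the same libraries. Of 14 trophectoderm markers 6 had any fragment, 169 in all, and Gata3, Eomes, Tead4 and Tfap2c were at 0 in every library while Cdx2 had 18. Their sum was 98.8 to 115 FPM in dICSI-AOA, 58.2 to 112 in ICSI-AOA and 133 to 221 in ICSI. Of 12 epiblast markers 3 had a fragment, 23 in all, with Pou5f1, Nanog and Sox2 at 0, and their sum was 0 to 13.2 FPM in dICSI-AOA, 13.3 to 46.1 in ICSI-AOA and 7.80 to 23.2 in ICSI. Of 14 primitive endoderm markers 9 had a fragment, 136 in all, with Sox17 and Dab2 at 0, and 72.4 to 121, 79.8 to 85.7 and 84.7 to 164 FPM in the 3 groups in the same order. Cumulus cell markers had 316 fragments, 307 of them from Star, and summed to 205 to 316 FPM in dICSI-AOA, 213 to 233 in ICSI-AOA and 179 to 203 in ICSI. The 6 sperm markers were at 0, and the 7 oocyte markers had 4 fragments. The part of these levels in the values that follow was not tested.

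Of the 98 members 57 had at least 1 fragment in some library, which is 58.2%, against 53.7% of all 22564 genes. The remaining 41 had no fragment in any of the 9 libraries. Detection was broadest for the integrins, with 13 of 18 alpha and 8 of 9 beta chains, and for type IV collagen, with 5 of 6 chains. Laminins followed with 7 of 11 chains and claudins with 13 of 25, and cadherins came last with 6 of 23. In a single library 33, 33 and 32 members were detected in dICSI-AOA, 36, 36 and 38 in ICSI-AOA and 36, 35 and 35 in ICSI, so the dICSI-AOA libraries detected the fewest. Over all genes the shares detected were 29.9% to 30.4% in dICSI-AOA, 30.2% to 30.7% in ICSI-AOA and 30.4% to 30.9% in ICSI. Over its 3 libraries a group detected 40 members in dICSI-AOA, 49 in ICSI-AOA and 48 in ICSI, and 35 members were found in all 3 groups. No member was found in dICSI-AOA alone, and each of the 6 found in ICSI-AOA alone and the 6 found in ICSI alone rested on 1 fragment. The matching counts by group over all genes are not given here, so these counts of members are a description only. Only 19 members were seen in every library, and 27 of the 57 had fewer than 10 fragments over all 9.

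The detected members held 4038 fragments, 0.295% of all fragments. Their distribution was uneven, since Itgb2l alone held 36.9% and Itgb2l, Itgb3bp and Itgb1bp1 together 62.9%. By family, integrin beta chains had 1647 fragments, integrin alpha chains 600, type IV collagens 241, claudins 217, cadherins 156 and laminins 86, and the name matches had 1091. Per length of transcript, by the mean FPKM over 9 libraries, the order was Itgb2l with 74.3, Itgb1bp1 with 26.7, Itgb3bp with 20.0, Cldn7 with 9.24 and Cldn20 with 8.10. The plot of fragments by member shows the fall in fragments from Itgb2l to members with about 1 fragment per library.

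**Figure D1:**
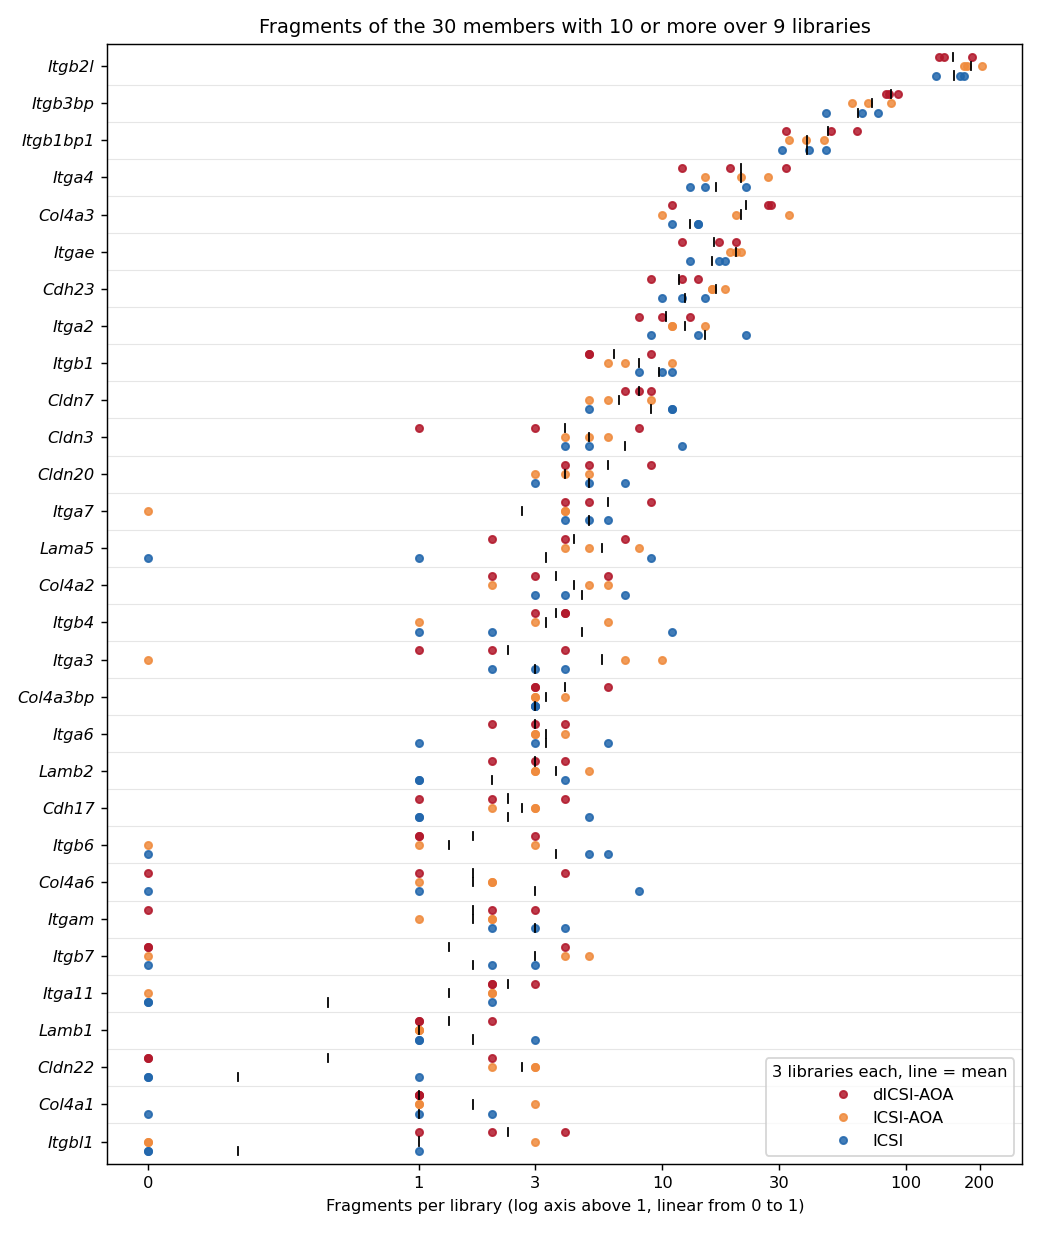
Fragments of the 30 members with at least 10 fragments over the 9 libraries, 1 point per library, with dICSI-AOA above ICSI-AOA and ICSI for each gene and a line at the group mean (n = 3). The horizontal axis is logarithmic above 1. Itgb2l sits between 133 and 204 in every library, and from Itgb1 downward most points lie at or under 10.

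Several adhesion genes best known from the trophectoderm were nearly or fully absent from the counts. Cdh1, E-cadherin, which compacts the morula and holds the trophectoderm together, had 0, 0 and 1 fragments in dICSI-AOA, 1, 3 and 1 in ICSI-AOA and 1, 2 and 0 in ICSI. Cdh3, P-cadherin of the trophoblast lineage, and Cdh2, N-cadherin, were at 0 in all libraries. Cldn4 had 1 fragment, in ICSI replicate 5, and Cldn6 had 0, although both are claudins known from the mouse trophectoderm. Itga5, the alpha chain of the fibronectin receptor, and Lama1, the alpha chain of the earliest embryonic laminin, were also at 0. Other members with known roles in the embryo were read in every library, among them Itgb1 with 72 fragments, Cldn7 with 71 and Cldn3 with 48. Whether the set can be described as adhesion genes of the trophectoderm was thus not settled by the counts, and it is described here by its leading genes. For the genes at or near 0, low expression and counting on the strand opposite to the transcript cannot be told apart.

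Integrin alpha chains select the ligand of the receptor. Itga4, which binds fibronectin and VCAM1 together with Itgb1 or Itgb7, had the most fragments, with 12, 19 and 32 in dICSI-AOA, 27, 21 and 15 in ICSI-AOA and 13, 15 and 22 in ICSI. Itgae, the alpha E chain that binds E-cadherin, had 20, 17 and 12 in dICSI-AOA, 20, 21 and 19 in ICSI-AOA and 17, 18 and 13 in ICSI. Itga2, a collagen receptor chain, had 8, 13 and 10 in dICSI-AOA, 11, 11 and 15 in ICSI-AOA and 9, 22 and 14 in ICSI. In fragments the groups overlapped for Itga4 and Itga2, while the ICSI-AOA libraries of Itgae were all above those of ICSI and overlapped them once scaled for depth. The highest library belonged to a different group for each of the 3 genes.

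Alpha chains of laminin receptors had fewer fragments. Itga6 had 4, 2 and 3 fragments in dICSI-AOA, 4, 3 and 3 in ICSI-AOA and 6, 3 and 1 in ICSI. Itga7 had 9, 4 and 5 in dICSI-AOA, 0, 4 and 4 in ICSI-AOA and 5, 4 and 6 in ICSI. Itga3 had 33 fragments in all, 17 of them in 2 ICSI-AOA libraries, while ICSI-AOA replicate 1 had 0. Itgav, the alpha chain of vitronectin receptors, had 0, 2 and 0 in dICSI-AOA, 0, 2 and 0 in ICSI-AOA and 1, 1 and 0 in ICSI. The leukocyte chains Itgam and Itgal had 19 and 6 fragments, Itga11 had 13, Itga2b and Itga8 had 3 each and Itgad had 1. Itgal was at 0 in dICSI-AOA, with 1 fragment in ICSI-AOA and 5 in ICSI. Itga1, Itga5, Itga9, Itga10 and Itgax were at 0 everywhere.

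Among the beta chains, Itgb2l had by far the most fragments and the highest FPKM. It encodes a relative of the beta 2 chain that is known from mouse neutrophils as pactolus, and it lies at chr16:96422288-96443619 on the minus strand of mm10 (GENCODE vM21). Itgb2l had 136, 143 and 187 fragments in dICSI-AOA, 177, 172 and 204 in ICSI-AOA and 167, 173 and 133 in ICSI. The ranges of the 3 groups overlapped. As deposited, its estimated counts averaged 170 ± 19.8 in dICSI-AOA, 195 ± 38.7 in ICSI-AOA and 146 ± 14.8 in ICSI, and its FPKM 86.2 ± 23.4, 75.6 ± 15.6 and 61.0 ± 11.6 (SD, n = 3 each). FPKM thus placed dICSI-AOA first, and fragments placed ICSI-AOA first, with 553 fragments against 466 in dICSI-AOA and 473 in ICSI. Igsf5, the gene next to it on the other strand, had 2 fragments in all.

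Itgb1, the partner of most alpha chains and needed for the embryo to survive implantation, had a much lower FPKM. It had 9, 5 and 5 fragments in dICSI-AOA, 6, 11 and 7 in ICSI-AOA and 11, 8 and 10 in ICSI, and a mean FPKM of 2.01 ± 0.839, 2.62 ± 1.17 and 2.30 ± 0.211 (SD, n = 3 each) in the same order. Itgb5 had 0, 2 and 2 fragments in dICSI-AOA, 2, 0 and 0 in ICSI-AOA and 0 in each ICSI library. Itgb4, the chain of hemidesmosomes, had 35 fragments, of which 11 came from ICSI replicate 5. Itgb6, an epithelial chain that pairs with Itgav, had 1, 3 and 1 in dICSI-AOA, 1, 0 and 3 in ICSI-AOA and 0, 6 and 5 in ICSI, so it was read in 2 of the 3 ICSI libraries and not in the other. Itgb7 had 18 fragments, Itgb2 had 3, Itgb8 had 1 and Itgb3 had 0.

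Cadherin fragments came mainly from Cdh23, a very long cadherin known from the tip links of sensory hair cells. It had 14, 12 and 9 fragments in dICSI-AOA, 16, 16 and 18 in ICSI-AOA and 10, 12 and 15 in ICSI, so the dICSI-AOA libraries lay below all ICSI-AOA libraries and among those of ICSI. Cdh17, the liver-intestine cadherin, had 22 fragments with 1 to 5 per library. After Cdh1, with 9, the cadherins Cdh4, Cdh5 and Cdh20 had 1 fragment each, and the other 17 were at 0.

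Of the claudins, Cldn7 and Cldn3, which seal epithelia, were the most frequent. Cldn7 had 9, 7 and 8 fragments in dICSI-AOA, 9, 6 and 5 in ICSI-AOA and 5, 11 and 11 in ICSI. Cldn3 had 8, 1 and 3 in dICSI-AOA, 5, 4 and 6 in ICSI-AOA and 4, 12 and 5 in ICSI, and its lowest and highest libraries were dICSI-AOA replicate 4 and ICSI replicate 5. Both genes overlapped between all groups. Cldn20 had 45 fragments with 3 to 9 per library.

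Cldn22 and Cldn2 were rarer and less even. Cldn22 had 2, 0 and 0 fragments in dICSI-AOA, 3, 2 and 3 in ICSI-AOA and 1, 0 and 0 in ICSI, so every ICSI-AOA library had at least as many as the highest library elsewhere. It is a single-exon gene at chr8:47824482-47825476, and all of its 995 bases lie opposite exons of Wwc2 on the other strand, which had 0 fragments. Cldn2, which forms cation pores in leaky epithelia, had 0 in each dICSI-AOA library, 4, 1 and 0 in ICSI-AOA and 2, 1 and 0 in ICSI. Of the other claudins, Cldn23 had 9 fragments, Cldn15 and Cldn19 had 8, Cldn10 had 5 and Cldn4, Cldn12, Cldn24 and Cldn25 had 1. The remaining 12 claudins, Cldn1 and Cldn5 among them, were at 0.

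Laminin chains assemble as trimers of an alpha, a beta and a gamma chain. Lama5, the alpha chain of laminins found in many epithelia, had 7, 2 and 4 fragments in dICSI-AOA, 8, 5 and 4 in ICSI-AOA and 1, 9 and 0 in ICSI, with the highest and lowest library of all in the ICSI group. Lamb2 had 3, 4 and 2 in dICSI-AOA, 3, 5 and 3 in ICSI-AOA and 1, 1 and 4 in ICSI. Lamb1, the beta chain of the embryonic laminin, had 2, 1 and 1 in dICSI-AOA, 1, 1 and 1 in ICSI-AOA and 1, 3 and 1 in ICSI. Lamc1, the gamma chain that most laminins share, had 1, 0 and 0 in dICSI-AOA, 0, 0 and 2 in ICSI-AOA and 0 in each ICSI library. Fragments of a chain of each kind were thus present in dICSI-AOA and in ICSI-AOA, and Lamc1 was at 0 in ICSI. Lamb3 had 3 fragments, Lama2 had 1, and Lama1, Lama3, Lama4 and Lamc3 had 0.

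The 6 type IV collagen genes lie as 3 head-to-head pairs, each pair with neighbouring start sites and transcribed away from each other, and the members of a pair differed in fragments. Col4a3, known from the basement membrane of the kidney glomerulus, had 11, 27 and 28 fragments in dICSI-AOA, 20, 33 and 10 in ICSI-AOA and 11, 14 and 14 in ICSI. Its partner Col4a4 had 0, 2 and 0 in dICSI-AOA, 0 in each ICSI-AOA library and 2, 0 and 1 in ICSI. The sum was 168 for Col4a3 and 5 for Col4a4. Col4a2 had 6, 2 and 3 in dICSI-AOA, 6, 2 and 5 in ICSI-AOA and 7, 3 and 4 in ICSI, and Col4a1, the chain with which it builds the common collagen IV trimer, had 1, 1 and 1 in dICSI-AOA, 3, 1 and 1 in ICSI-AOA and 0, 1 and 2 in ICSI. Before rounding, each dICSI-AOA value of Col4a1 was 0.502. The sums were 38 fragments for Col4a2 and 11 for Col4a1. On the X chromosome Col4a6 had 19 and Col4a5 had 0. An exon of a gene on the other strand, C430014B12Rik, overlaps 563 exonic bases of Col4a3, and what it adds to the Col4a3 count was not tested.

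The short stretches that hold the start sites of the 2 autosomal collagen pairs are shown because a pair shares them while the counts of its genes differ. They are written 5′ to 3′ on the plus strand of GRCm38.p6, from RefSeq, with 30 bases of each gene kept. Capitals mark the 71 bases between the 2 starts for Col4a4 and Col4a3 (chr1:82586820-82586950), and the 22 bases that the first exons of Col4a1 and Col4a2 share (chr8:11312797-11312834).
Col4a4 and Col4a3: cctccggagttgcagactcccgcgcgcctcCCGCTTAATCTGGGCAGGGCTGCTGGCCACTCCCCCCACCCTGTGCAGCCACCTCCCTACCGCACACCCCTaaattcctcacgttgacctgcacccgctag
Col4a1 and Col4a2: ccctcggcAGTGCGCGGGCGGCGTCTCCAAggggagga

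Of the genes that match only by name, Itgb3bp and Itgb1bp1 were the second and the third of all members. Itgb3bp encodes a centromere protein that also binds the tail of integrin beta 3, and it had 83, 93 and 85 fragments in dICSI-AOA, 87, 60 and 70 in ICSI-AOA and 47, 66 and 77 in ICSI. All dICSI-AOA libraries had more fragments than all ICSI libraries, but the groups overlapped once scaled for depth. Itgb1bp1 encodes ICAP1, which binds the tail of integrin beta 1 and holds the receptor inactive, and it had 63, 32 and 49 in dICSI-AOA, 46, 33 and 39 in ICSI-AOA and 31, 47 and 40 in ICSI, with overlap between all groups. Its exons overlap 402 bases of Asap2 on the other strand, which had 310 fragments. Col4a3bp, a ceramide transfer protein, had 31 fragments with 3 to 6 per library, Itgbl1 had 11, Itgb1bp2 had 1 and Cldnd2 had 0.

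Itgb1bp1 is also one of a head-to-head pair, and its start region is shown for the same reason as those of the collagens. Cpsf3, a subunit of the complex that cleaves the 3′ ends of mRNA precursors, had 1 fragment against 380 for Itgb1bp1. In RefSeq it begins beyond 12 bases, given in capitals. In GENCODE vM21 the gene starts at chr12:21285391, within Itgb1bp1, so the gap holds for RefSeq only. The stretch is the plus strand of chr12:21286255-21286326 (GRCm38.p6, RefSeq).
Itgb1bp1 and Cpsf3: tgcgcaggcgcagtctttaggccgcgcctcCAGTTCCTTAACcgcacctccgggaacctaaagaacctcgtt

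Overlap with genes on the other strand was common among the members. Of the 57 detected members 11 have at least 100 exonic bases opposite exons of another gene, and they held 36.7% of the member fragments. Counting any gene that lies across a member on the other strand, the share was 87.0%. That share includes Itgb2l, with 36.9% of the member fragments, through an annotated gene named Igsf5. The Igsf5 of the deposited table (chr16:96361668-96422121) ends before Itgb2l starts, so the share is an upper figure. Itga4 overlaps 1124 bases of Cerkl, which had 394 fragments against 176 for Itga4, and Gsg2, which lies within Itgae on the other strand, had 643 against 157. Since the strand used in counting is not known here, fragments from overlapping exons of a member and its partner cannot be told apart. Exons of Itgae overlap 0 bases of exons on the other strand, so this does not cover Itgae and Gsg2.

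Levels of whole families are given in FPM and as summed FPKM. Integrin beta chains reached 984, 1027 and 1219 FPM in dICSI-AOA, 1246, 1257 and 1468 in ICSI-AOA and 1404, 1167 and 1072 in ICSI. The dICSI-AOA libraries were thus all below those of ICSI-AOA in FPM. In summed FPKM, however, they averaged 93.6 ± 21.2 against 81.3 ± 16.2 in ICSI-AOA and 69.0 ± 15.3 in ICSI (SD, n = 3 each), so the order of the groups turned with the unit. Most of this family is Itgb2l, with 1492 of the 1647 fragments, and the scaled libraries of Itgb2l overlapped between dICSI-AOA and ICSI-AOA. Cadherins had 115, 85.6 and 73.5 FPM in dICSI-AOA, 132, 146 and 142 in ICSI-AOA and 93.6, 87.1 and 155 in ICSI, and summed FPKM of 4.09 ± 1.23, 6.52 ± 1.14 and 4.55 ± 1.17 in the same order, with dICSI-AOA under ICSI-AOA in both units. That order is the one of Cdh23.

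The other families overlapped between groups in both units, apart from 1 case. Integrin alpha chains had 383, 402 and 429 FPM in dICSI-AOA, 428 to 479 in ICSI-AOA and 424 to 476 in ICSI. Their summed FPKM were 12.4 ± 1.53 in dICSI-AOA, all under those of ICSI-AOA at 15.1 ± 0.772, and 15.3 ± 2.78 in ICSI. Claudins had 125 to 159 FPM in dICSI-AOA, 129 to 191 in ICSI-AOA and 155 to 192 in ICSI. Laminins had 42.9 to 89.5, 71.1 to 85.7 and 23.4 to 75.4, and type IV collagens 141 to 217, 116 to 246 and 151 to 156, in the same order of groups. In FPM collagen IV was thus nearly constant in ICSI, although its summed FPKM there were 1.88, 2.57 and 4.19, and it varied within ICSI-AOA, where Col4a3 had 33 fragments in replicate 4 and 10 in replicate 5.

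**Figure D2:**
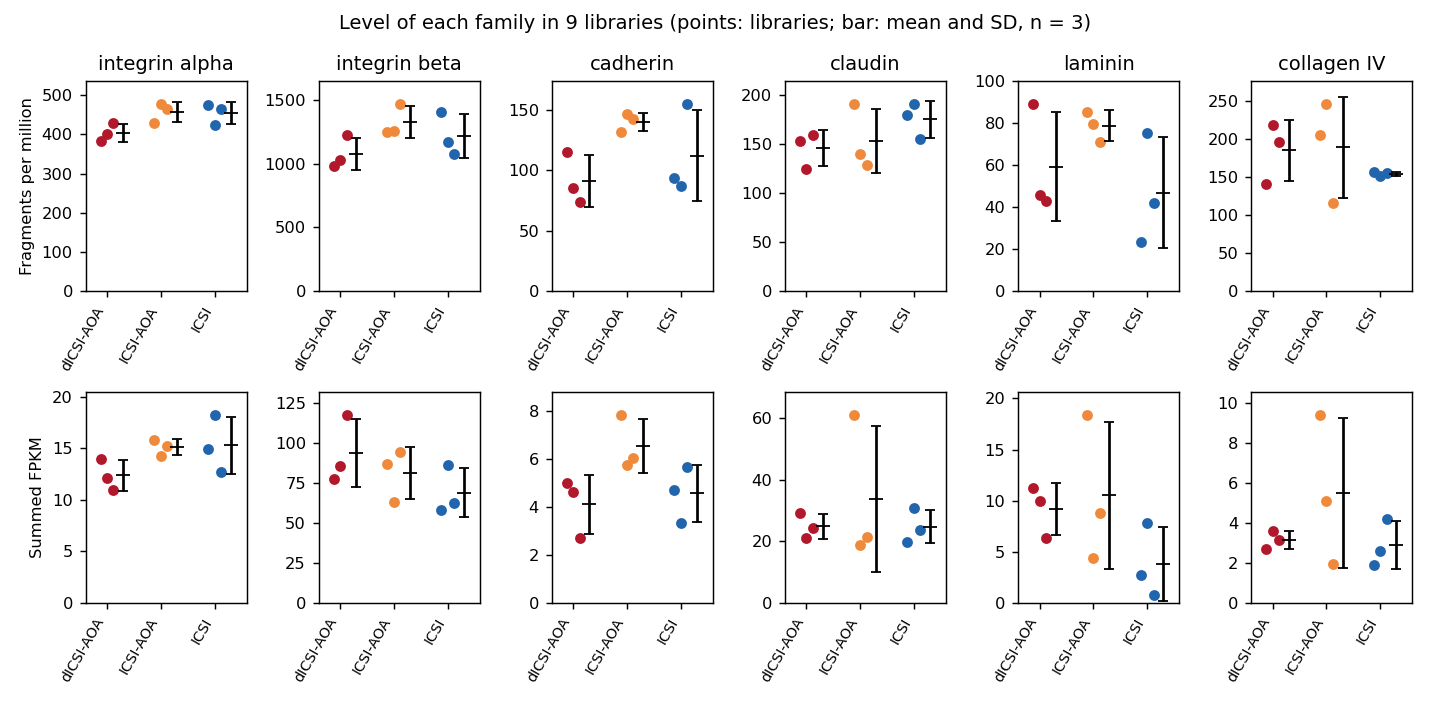
Level of the 6 families in each library, as FPM (upper row) and as summed FPKM (lower row), with dICSI-AOA, ICSI-AOA and ICSI from left to right and the mean and SD of 3 libraries as bars. Integrin beta chains average 1077, 1324 and 1214 FPM but 93.6, 81.3 and 69.0 in summed FPKM, and the claudin point at 61.2 FPKM is ICSI-AOA replicate 1.

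FPKM and fragments also parted within single genes. Of the 45 members with at least 3 fragments, 15 had an estimated count per FPKM that varied over 2-fold across the libraries, whereas for Itgae it stayed between 4.64 and 4.69. The extreme was Cldn2, whose 4 fragments in ICSI-AOA replicate 1 were listed as 30.6 FPKM, while 1 fragment in ICSI-AOA replicate 4 was 0.239 FPKM and 2 fragments in ICSI replicate 2 were 0.476. Col4a1 was listed at 5.78 FPKM from 3 fragments in ICSI-AOA replicate 1 and at 0.180 from 2 fragments in ICSI replicate 6. These values moved family sums, and claudins in ICSI-AOA replicate 1 reached 61.2 FPKM from 29 fragments, against 30.7 from 33 fragments in ICSI replicate 5.

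**Figure D3:**
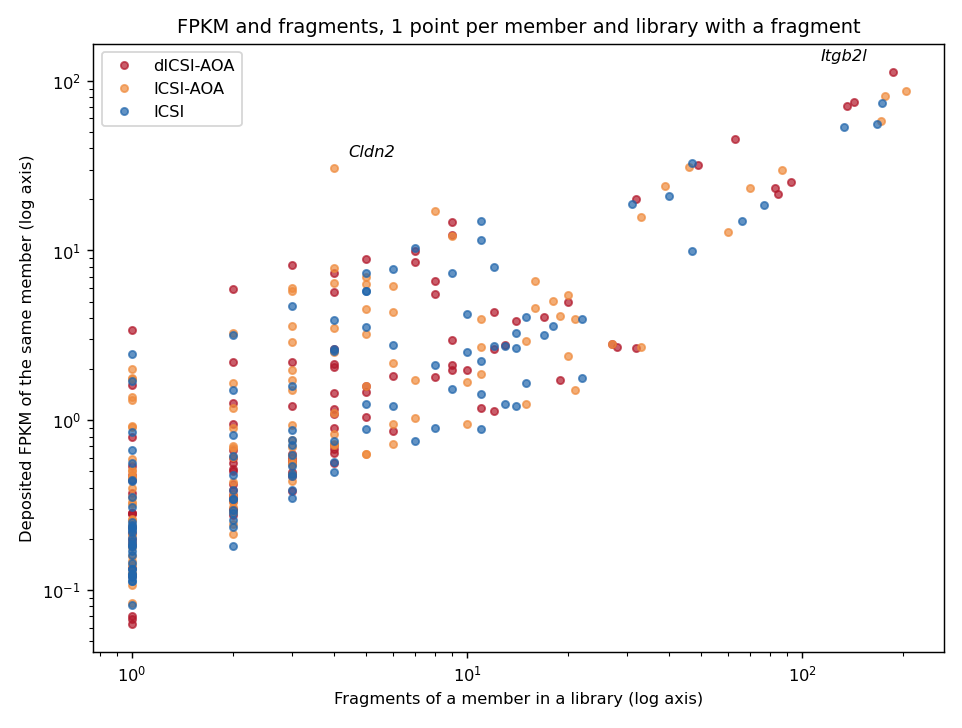
Deposited FPKM against fragments for each member in each library where it had a fragment, both axes logarithmic, coloured by group. Members with the same number of fragments differ widely in FPKM, and Cldn2 in ICSI-AOA replicate 1 stands at 4 fragments and 30.6 FPKM.

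The spread between libraries of a group was set beside the spread that counting alone gives. After TMM scaling, Itgb2l varied by 13.6% within groups (coefficient of variation), against 7.77% from counting, and Itgb1bp1 by 21.4% against 15.4%. Col4a3 varied the most beyond counting among the genes with over 100 fragments, by 45.8% against 23.1%, and Itga4 by 35.8% against 22.6%. Itgae at 16.9% and Cdh23 at 16.5% stayed under the 23.9% and 27.2% that counting gives. Over all 9 libraries the scaled level of Itgb2l differed 1.58-fold between the highest and the lowest, and that of Col4a3 3.26-fold.

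The groups were compared gene by gene to ask whether ionomycin after normal sperm, or the kind of sperm under ionomycin, changed the transcripts. The dICSI-AOA and ICSI groups differ in both the sperm and the ionomycin, and no library had sperm of lowered activating ability without ionomycin. In that comparison, and with both AOA groups against ICSI, sperm and ionomycin cannot be told apart. Of the members 17, which is 17.3%, reached an average FPKM of 1 across the libraries and were tested among 4304 genes, which is 19.1% of all genes. A gene was called where edgeR's quasi-likelihood test passed the thresholds of the study, more than 1.3-fold and p under 0.05 before adjustment. Cldn2 passed the FPKM minimum only through 1 library, ICSI-AOA replicate 1, and Cldn22 only through the ICSI-AOA group, with a mean FPKM of 2.72 there against 0.733 in dICSI-AOA and 0.284 in ICSI. The filter thus favoured a difference for these 2 genes where ICSI-AOA is the higher group, and their values there are a description. The members Cdh1, Itga5, Lamc1, Col4a1 and Col4a2 were under it. The 3 comparisons of pairs share libraries with each other, so their values are not independent.

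Between dICSI-AOA and ICSI no tested member was called by edgeR, at a background of 6.58% of all tested genes (283 of 4304), and no member had an unadjusted p under 0.05. The gene with the most fragments, Itgb2l, had a log2 fold change of −0.18 (SE 0.19), with an approximate 95% interval from −0.55 to 0.20. Itgb3bp had 0.32 (SE 0.22, adjusted p = 0.820), Col4a3 0.61 (SE 0.41, adjusted p = 0.816) and Itgb1 −0.76 (SE 0.48, adjusted p = 0.807, edgeR). The interval of Itgb1 ran from −1.70 to 0.19, which covers a clear fall as well as no change. The smallest p of a member was 0.101, for Cldn2, at 0 fragments in dICSI-AOA and 3 in ICSI. DESeq2 and limma on log2(FPKM + 1) also called 0 members.

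Between ICSI-AOA and ICSI 0 of 17 members were called by edgeR as well, at a background of 7.06% (304 of 4304), and none with an unadjusted p under 0.05. Itgb2l had a log2 fold change of 0.11 (SE 0.19), with an interval from −0.26 to 0.48, and Itgb3bp of 0.09 (SE 0.22). Cldn22 had the largest value, 2.51 (SE 1.34, adjusted p = 0.726, edgeR), from 8 fragments in ICSI-AOA and 1 in ICSI, a ratio at equal depth of 7.75 with an exact 95% counting interval from 1.04 to 344. The gene was tested only because of its level in ICSI-AOA, so this value and the next describe that level. After scaling, its ICSI-AOA libraries were all above those of ICSI, as was so, in either direction, for 13.3% of all tested genes. DESeq2 called 0 members, and limma on log2(FPKM + 1) called Cldn22.

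Between dICSI-AOA and ICSI-AOA 1 of 17 members was called by edgeR, at a background of 6.62% (285 of 4304). This was Cldn2, which was lower in dICSI-AOA, with 0 fragments against 5 in ICSI-AOA and an adjusted p = 0.737. Its unadjusted p was 0.0476. Since Cldn2 was tested only through 30.6 FPKM in ICSI-AOA replicate 1, the filter favoured this direction, and the call is given as a description. Its fitted log2 fold change of −3.82 (SE 1.83) depends on how the fit treats 0. With 3 fragments over the group in place of 0, Cldn2 was 1.72-fold lower in dICSI-AOA. That value takes the 5 fragments of ICSI-AOA as exact, so it is not a lower limit of the difference. It also rests on the 4 fragments of ICSI-AOA replicate 1, and without that library the 1 fragment left gave no such value. The call was lost in 12 of 17 alternatives, with p between 0.0237 and 0.280 and adjusted p between 0.698 and 0.999 over them. Among these were DESeq2, both fits of FPKM with limma, the fit of the 6 libraries compared, and each fit without dICSI-AOA replicate 1, 4 or 5, ICSI-AOA replicate 1 or 4, or ICSI replicate 2 or 5.

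No other member passed between these groups. The fitted log2 change was −0.29 for Itgb2l (SE 0.19, adjusted p = 0.815), with an interval from −0.66 to 0.09, and for Cdh23 it was −0.55 (SE 0.37, adjusted p = 0.820, edgeR). For Cdh23 and Cldn22 the scaled dICSI-AOA libraries were all below those of ICSI-AOA, so 2 of 17 members, 1 of them tested only through ICSI-AOA, did not overlap, and in either direction 12.0% of all tested genes did not. No member had an adjusted p under 0.05 in any of the 4 comparisons, where edgeR gave 1 such gene of 4304 for dICSI-AOA against ICSI (0.0232%), 1 for ICSI-AOA against ICSI (0.0232%), 6 for dICSI-AOA against ICSI-AOA (0.139%) and 0 for both AOA groups against ICSI.

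With both AOA groups set against ICSI, 0 of 17 members were called by edgeR, at a background of 6.95% (299 of 4304), and none had an unadjusted p under 0.05. The smallest p was that of Col4a3, 0.114, with a log2 fold change of 0.60 (SE 0.36). DESeq2 also called 0 and limma on log2(FPKM + 1) called 1, Lama5. The median log2 fold change of the members was −0.03, against −0.02 over all tested genes. It was −0.18 against −0.01 for dICSI-AOA over ICSI and 0.09 against −0.02 for ICSI-AOA over ICSI. For dICSI-AOA over ICSI-AOA it was −0.29 against −0.02, and 11 of 17 members were below 0. Cldn2 and Cldn22 are among these 11. The filter favoured this direction for both, so this median and this count are a description.

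**Figure D4:**
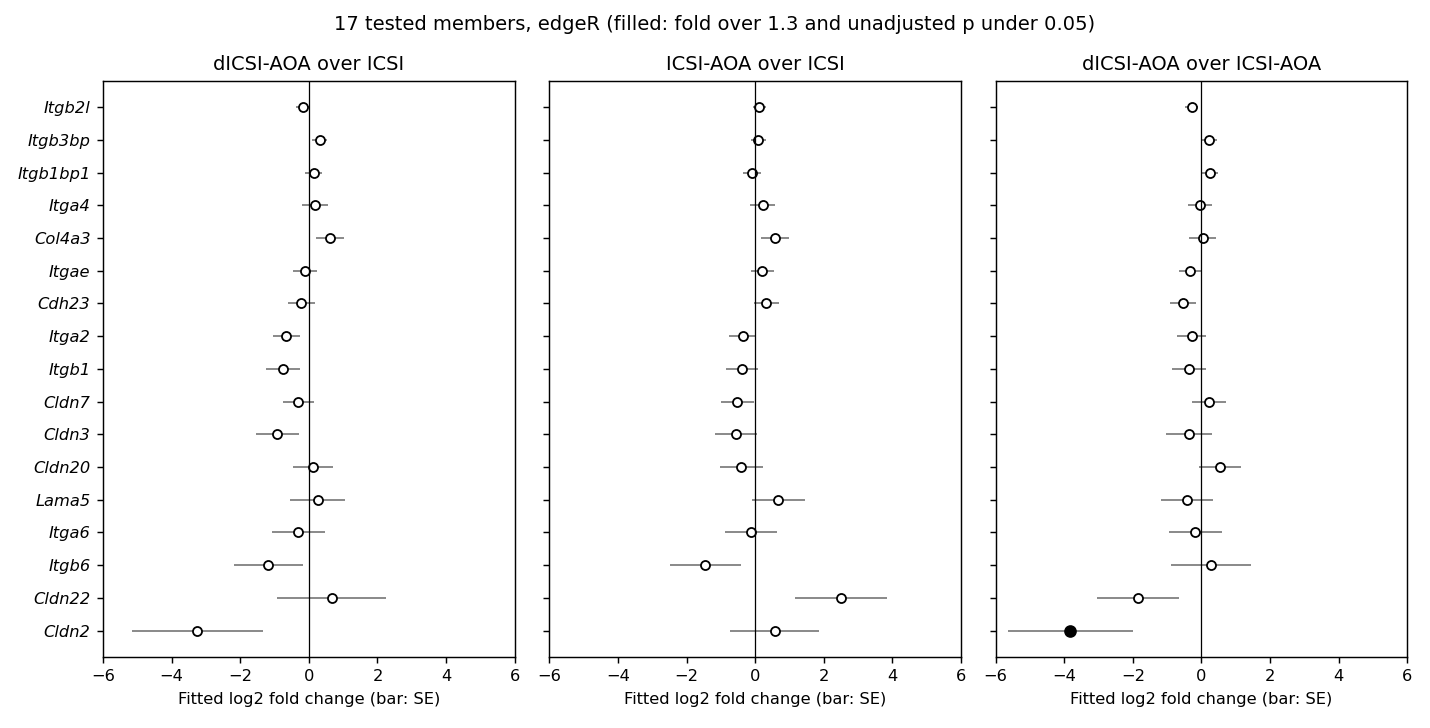
Fitted log2 fold changes of the 17 tested members with their SE from edgeR, for dICSI-AOA over ICSI, ICSI-AOA over ICSI and dICSI-AOA over ICSI-AOA, ordered by total fragments. The only filled point, past both thresholds, is Cldn2 in dICSI-AOA over ICSI-AOA. SE widen from 0.19 for Itgb2l to 1.91 for Cldn2 in dICSI-AOA over ICSI.

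The choice of scaling decided 2 of the members with many fragments. With the authors' library factors kept, the median of all genes moved to 0.36 for dICSI-AOA over ICSI, 0.25 for ICSI-AOA over ICSI and 0.31 for both AOA groups over ICSI. Calls over all genes were then 510 higher and 45 lower, 306 and 45, and 461 and 43, in that order, against 132 and 151, 129 and 175, and 113 and 186 after TMM scaling. Scaling by total fragments alone gave 176 and 123, 156 and 138, and 153 and 152. For dICSI-AOA over ICSI-AOA the split was 185 and 74 with the factors and 156 and 129 after TMM. Under the factors Itgb3bp was called higher in dICSI-AOA than in ICSI, with a log2 fold change of 0.69 (SE 0.29), and Col4a3 with 0.98 (SE 0.42). Less the shift of all genes these were 0.32 and 0.61. Both were also called higher in the 2 AOA groups together, and their adjusted p of 0.312 in dICSI-AOA against ICSI missed 0.05.

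Genes that work with the members were taken as 6 lists, chosen with earlier results of these data known. They cover 141 genes of the table, of which 109 (77.3%) had a fragment, 9615 in all, and 44 were tested. The plaque and adaptor genes were thus better covered than the members. Between dICSI-AOA and ICSI 0 of the 44 were called higher and 5 lower, at a background of 6.58% of all tested genes, with 132 higher and 151 lower. For ICSI-AOA against ICSI these were 2 and 6, at 7.06% with 129 and 175. For dICSI-AOA against ICSI-AOA they were 2 and 1, at 6.62% with 156 and 129, and with both AOA groups against ICSI 0 and 8, at 6.95% with 113 and 186. None of these 24 calls had an adjusted p under 0.05, with a range from 0.201 to 0.737.

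Catenins and nectins link cadherins to actin and to each other. Of 18 genes 17 had a fragment and 6 were tested. Ctnnd1, p120-catenin, which keeps cadherins at the membrane, had 54, 40 and 47 fragments in dICSI-AOA, 45, 69 and 67 in ICSI-AOA and 77, 74 and 54 in ICSI, and was lower in dICSI-AOA than in ICSI (log2 −0.69, SE 0.24, adjusted p = 0.485, edgeR). It was also called lower in both AOA groups together, and without ICSI replicate 2 both calls were lost, with values of −0.50 and −0.31. Epcam, an adhesion molecule of epithelia, had 2, 6 and 6 in dICSI-AOA, 1, 3 and 3 in ICSI-AOA and 8, 4 and 8 in ICSI, and was lower in ICSI-AOA than in ICSI (log2 −1.59, SE 0.70, adjusted p = 0.611, edgeR). That call was lost without ICSI-AOA replicate 1 (−1.24), ICSI replicate 2 (−1.36) or ICSI replicate 6 (−1.44). Vcl, vinculin, had the most fragments of the list, 756, and was called in no comparison, as was Rac1 with 75.

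The tight junction plaque holds the scaffold of claudins and the polarity complexes. Of 30 genes 25 had a fragment and 9 were tested. Jam3, a junctional adhesion molecule, had 5, 8 and 6 fragments in dICSI-AOA, 14, 8 and 11 in ICSI-AOA and 4, 4 and 4 in ICSI, and was higher in ICSI-AOA than in ICSI (log2 1.32, SE 0.51, adjusted p = 0.560, edgeR), though not called without ICSI-AOA replicate 1. Pard6g, a polarity protein, had 3, 5 and 3 in dICSI-AOA, 3, 11 and 9 in ICSI-AOA and 2, 3 and 3 in ICSI, and was also higher in ICSI-AOA than in ICSI (log2 1.38, SE 0.66, adjusted p = 0.682, edgeR), a call lost in 5 of 9 fits without a library, down to 1.04 without ICSI-AOA replicate 4. Mpp5, the Pals1 scaffold of the Crumbs complex, was lower in dICSI-AOA than in ICSI, with 22, 21 and 28 against 24, 35 and 38 (log2 −0.59, SE 0.28, adjusted p = 0.731, edgeR). It was also lost in 5 of 9 such fits, with −0.45 without ICSI replicate 6. Exons of Jam3 lie opposite 1159 bases of Gm48796, as do 301 bases of Loxl2 opposite Gm27177 and 101 of Krt8 opposite Gm36026. Jam2 had 951 fragments and Magi3 had 92, and neither was called.

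Desmosomes and keratins give the epithelium its strength. Of 20 genes 16 had a fragment and 7 were tested. Krt8, a keratin of the trophectoderm, had 2, 4 and 4 fragments in dICSI-AOA, 4, 2 and 1 in ICSI-AOA and 8, 9 and 13 in ICSI. Every ICSI library was thus above every AOA library. Between ICSI-AOA and ICSI 13.3% of all tested genes did not overlap after scaling, in either direction. Such a share is not given here for dICSI-AOA or for both AOA groups against ICSI. Krt8 was lower than in ICSI in dICSI-AOA (log2 −1.69, SE 0.59, adjusted p = 0.513) and in ICSI-AOA (log2 −2.15, SE 0.62, adjusted p = 0.415, edgeR). Both calls were kept whichever library was left out. Krt7, another keratin of the trophectoderm, had 4, 4 and 2 in dICSI-AOA, 6, 5 and 3 in ICSI-AOA and 0, 3 and 4 in ICSI, and was not called, with fitted values above 0 against ICSI in dICSI-AOA (log2 0.37, SE 0.83) and in ICSI-AOA (log2 0.87, SE 0.80). Krt8 is also one of the trophectoderm markers summed above. Without it the sum was 72.4 to 102 FPM in dICSI-AOA, 51.7 to 85.7 in ICSI-AOA and 70.2 to 168 in ICSI, so the groups overlapped, and Elf5 gave 24 of the 29 fragments of the highest library, ICSI replicate 5. Plec, plectin, which ties keratins to hemidesmosomes, had 14, 10 and 12 in dICSI-AOA, 19, 12 and 27 in ICSI-AOA and 24, 33 and 24 in ICSI, and was lower in dICSI-AOA than in ICSI (log2 −1.30, SE 0.34, adjusted p = 0.201, edgeR). Pkp3, plakophilin 3, was higher in dICSI-AOA than in ICSI-AOA, with 9, 3 and 13 against 5, 2 and 2 (log2 1.39, SE 0.66, adjusted p = 0.737, edgeR), and 4 of 9 fits without a library lost the call, with 0.95 without dICSI-AOA replicate 5. Krt19 was lower in the same comparison, with 2, 2 and 0 against 4, 5 and 5 (log2 −1.75, SE 0.84, adjusted p = 0.737, edgeR), and 6 of 9 such fits lost it, with −1.18 without dICSI-AOA replicate 5. Ppl had 239 fragments and Dst had 150, and neither was called.

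Integrin adaptors join the tails of the receptors to the cytoskeleton. Of 27 genes 21 had a fragment and 10 were tested, and this list held the most fragments, 3463. Zyx, zyxin, had 131, 189 and 183 in dICSI-AOA, 154, 166 and 225 in ICSI-AOA and 153, 173 and 108 in ICSI. Ilk, integrin-linked kinase, had 89, 104 and 86 in dICSI-AOA, 80, 86 and 62 in ICSI-AOA and 70, 95 and 72 in ICSI. Neither was called, and the only call was Fermt1, kindlin-1, which activates integrins. Fermt1 was lower in dICSI-AOA than in ICSI, with 7, 8 and 3 against 6, 22 and 11 (log2 −1.21, SE 0.50, adjusted p = 0.649, edgeR), where ICSI replicate 5 was the highest library. The call was lost without ICSI replicate 5 (−0.71) or dICSI-AOA replicate 5 (−0.87).

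Basement membrane partners modify or accompany laminin and collagen IV. Of 31 genes 23 had a fragment and 8 were tested. Plod1, a lysyl hydroxylase of collagen, had 62, 141 and 82 fragments in dICSI-AOA, 49, 40 and 79 in ICSI-AOA and 39, 163 and 73 in ICSI. It was lower in ICSI-AOA than in ICSI (log2 −0.77, SE 0.34, adjusted p = 0.611) and higher in dICSI-AOA than in ICSI-AOA (log2 0.74, SE 0.34, adjusted p = 0.720, edgeR). The ranges of Plod1 overlapped in both comparisons, and ICSI replicate 5 held more than the other ICSI libraries together. Without ICSI replicate 5 the first value was −0.18 and without dICSI-AOA replicate 4 the second was 0.28, and both calls were then lost, as they were without ICSI-AOA replicate 1 or 4. P4hb, a subunit of prolyl 4-hydroxylase, had 6, 3 and 4 in dICSI-AOA, 0, 3 and 3 in ICSI-AOA and 6, 9 and 12 in ICSI, and was lower in ICSI-AOA than in ICSI (log2 −2.21, SE 0.69, adjusted p = 0.443, edgeR). Loxl2, a lysyl oxidase that crosslinks collagen IV, was also lower in ICSI-AOA, with 31, 29 and 28 against 26, 64 and 47 in ICSI (log2 −0.72, SE 0.28, adjusted p = 0.561, edgeR), a call lost without ICSI replicate 5, at −0.50. Loxl3 had 257 fragments and Col18a1 had 139, and neither was called.

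Blastocoel transport genes move ions and water across the trophectoderm. Of 15 genes 7 had a fragment and 4 were tested, while Aqp3, Aqp8 and Aqp9 were at 0. Slc9a3r1, a scaffold of apical exchangers, had 4, 9 and 7 fragments in dICSI-AOA, 4, 4 and 4 in ICSI-AOA and 16, 10 and 7 in ICSI, and was lower in ICSI-AOA than in ICSI (log2 −1.55, SE 0.54, adjusted p = 0.525, edgeR), but not called without ICSI replicate 2, at −1.09. Atp1b1 and Atp1b3, beta chains of the sodium pump, had 73 and 22 fragments and were called in no comparison.

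The calls of partner genes often changed with the tool. Of the 24, DESeq2 kept 13, limma on log2(FPKM + 1) kept 8, the authors' factors kept 11 and total fragments kept 22, and none changed sign under any alternative in which it was tested. With both AOA groups together, Krt8, Plec, Fermt1, P4hb, Loxl2 and Slc9a3r1 were called lower as well. Without ICSI replicate 5 or without ICSI replicate 2, 16 of the 24 were kept. The 7 calls of Krt8, Plec and P4hb were kept whichever library was left out, and the other 17 were lost without at least 1 library. Both calls of Plec were lost with limma on log2(FPKM + 1), with log2 −0.34 for dICSI-AOA against ICSI and −0.19 for both AOA groups, and the second also with the authors' factors (−0.61). That of Krt8 in dICSI-AOA against ICSI was lost with limma on log2(FPKM + 0.1), at −1.33. Epcam and P4hb in ICSI-AOA, Plec in dICSI-AOA and Pard6g in ICSI averaged under 1 FPKM in the group where they were lower, so the FPKM minimum was reached through the other groups.

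**Figure D5:**
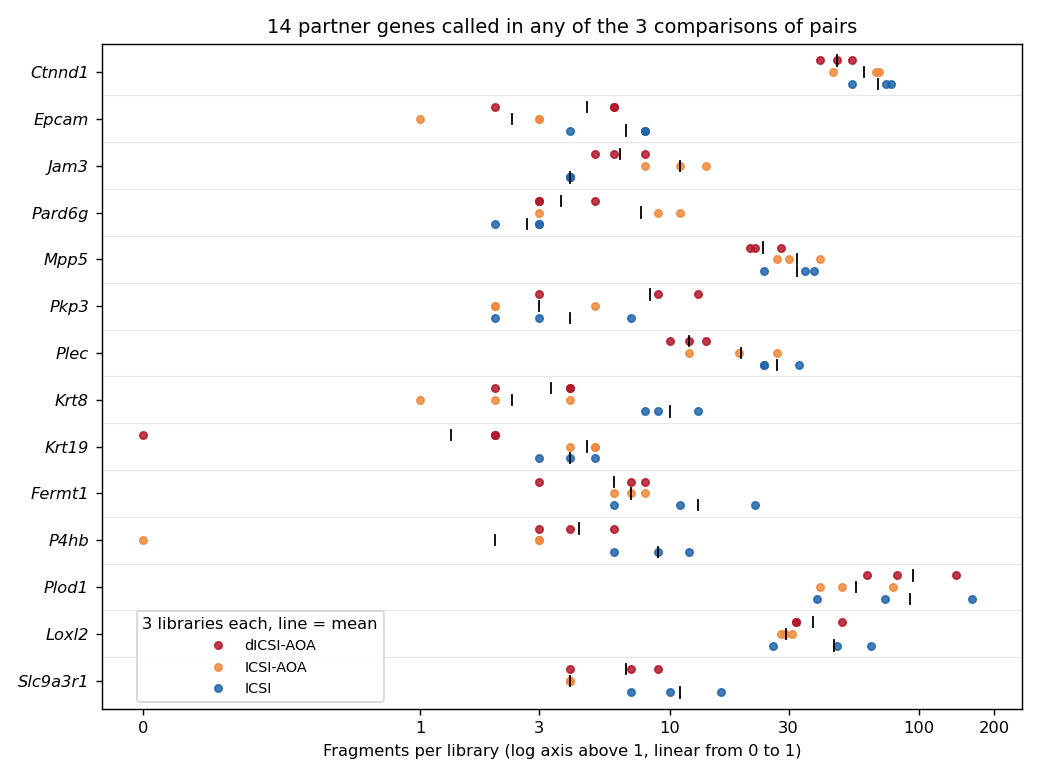
Fragments per library of the 14 partner genes called in any of the 3 comparisons of pairs, with dICSI-AOA above ICSI-AOA and ICSI for each gene and a line at the group mean (n = 3), on an axis that is logarithmic above 1. Krt8 has 1 to 4 fragments in the AOA libraries and 8 to 13 in the ICSI libraries, and for most other genes the groups overlap.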

How the data were processed

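Total RNA libraries of 5 pooled blastocysts were measured by paired-end RNA-seq. Per the labels and methods the authors trimmed reads with cutadapt 1.9.3, aligned them to mm10 with HISAT2 and ran Cuffdiff on an Ensembl annotation, with other versions and the strand setting not given in the sources used here. The deposited estimated counts and FPKM were made by the authors in that step. In each library 95.6% to 96.1% of the estimated counts above 0 lay within 0.01 of whole multiples of 1 step, and they were divided by the step and rounded to fragments. Libraries held 128176 to 172307 fragments, so counts were low. Floors and intervals of ratios and of counts cover counting error only, while intervals of log2 fold changes come from the SE of the fit and include the spread between libraries.

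Genes whose FPKM averaged 1 or more were fitted on fragments with edgeR 4.0.16 (R 4.3.3, TMM, quasi-likelihood, 1 mean per group, all 9 libraries, two-sided), with Benjamini-Hochberg adjustment over 4304 genes. The test was also run on simulated fragments with known changes, but the outcome is not given here. How often a true change would be missed at this depth is therefore not stated. The labels do not say that replicates came from separate parents, so p-values measure the spread between these pools. Alternatives were limma 3.58.1 on log2(FPKM + 1) and log2(FPKM + 0.1), DESeq2 1.42.0, other filters and scalings, the compared libraries alone, leaving out each library, and a replicate block. Members and gene lists were chosen with earlier results of these data known. Full values are given for members called in any comparison, the 10 with the most fragments and 20 with known roles in the embryo or its basement membrane, and for the partner genes called, of which 1 is not reported here. Gene positions and exon overlaps are from GENCODE vM21 (mm10) and start regions from RefSeq (GRCm38.p6).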

Additional observations from a re-analysis of the deposited data

How the results depend on the processing

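Low counts limit the values, since 27 of 57 detected members had fewer than 10 fragments. The members called moved by 1 or 2 between settings, and no called value changed sign. With all genes that had a fragment, 1 member was called in each comparison, namely Cldn19 between ICSI-AOA and ICSI, Itgal between dICSI-AOA and ICSI and for both AOA groups against ICSI, and Cldn2 between dICSI-AOA and ICSI-AOA. The genes called were then 529 for ICSI-AOA against ICSI, 467 for dICSI-AOA against ICSI, 503 for dICSI-AOA against ICSI-AOA and 591 for both AOA groups against ICSI. In the same order of comparisons, a mean of 10 fragments gave 178, 164, 142 and 168 genes, with 0 members, and DESeq2 gave 146, 133, 121 and 151, also with 0 members. With limma, 1 member was called between ICSI-AOA and ICSI (Cldn22) and for both AOA groups against ICSI (Lama5) with either pseudocount. Between dICSI-AOA and ICSI-AOA, limma on log2(FPKM + 0.1) called 0 and on log2(FPKM + 1) called Cldn22 in place of Cldn2. For dICSI-AOA against ICSI, limma called 434 genes with a pseudocount of 1 and 425 with 0.1. The authors' factors gave 555 genes for dICSI-AOA against ICSI and 504 for both AOA groups, with 2 members in each, and 1 member between ICSI-AOA and ICSI (Cldn22). The 6 compared libraries alone left 0 members between dICSI-AOA and ICSI-AOA.

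Leaving out each library in turn gave 0 to 1 members between ICSI-AOA and ICSI, 0 to 2 between dICSI-AOA and ICSI, 0 to 1 between dICSI-AOA and ICSI-AOA and 0 to 2 for both AOA groups, with 241 to 330, 240 to 339, 217 to 347 and 264 to 332 genes. Lama5 was called higher without ICSI replicate 5 (log2 3.05 in ICSI-AOA and 2.63 in dICSI-AOA), Cldn3 lower in dICSI-AOA without its replicate 1, Col4a3 higher in dICSI-AOA without its replicate 1 and in ICSI-AOA without its replicate 5, Cldn22 without ICSI replicate 2 or dICSI-AOA replicate 1, Itgb6 for both AOA groups without ICSI replicate 2, and Itgb3bp in dICSI-AOA without ICSI replicate 6. The cause was not tested.

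The deviations of same-numbered AOA libraries from their group means were correlated by 0.0794, 0.00236 and 0.0528. For libraries with different numbers these correlations ran from −0.0765 to 0.0280. The labels do not say that a number is shared material, so the numbers were not taken as pairs. A replicate block left 0 members and 292 genes between dICSI-AOA and ICSI-AOA. At 3 fragments or more the median library detected 21 members and 3964 genes, and at an FPKM of 1 or more 18 and 4194, against 35 and 6852 with any fragment. Of 1120 alternative values of the 17 tested members, 1085 stayed on the same side of the thresholds, 23 passed them and 12, all of Cldn2, no longer did, and 70 changed sign without a call.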
